A study of Mus musculus with 2 samples.

Results

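The Notch receptors Notch1, Notch2, Notch3 and Notch4, the ligands Jag1 and Dll4 and the target genes Hes1, Hey1 and Heyl were followed through 3 cell classes of a hepatic stellate cell preparation from fibrotic mouse liver. These 9 genes, of 31054 features in the count tables, were chosen by name, selected from a description of the same libraries in which Heyl was already listed among the largest differences, so the ratios between the libraries are descriptions. The study asked what follows when hepatocytes with high p16 are eliminated during liver fibrosis. In male p16-LRTD mice, the control, p16-CreERT2 was combined with the R26-CAG-LSL-RSR-tdTomato-2A-DTR allele, and p16-Alb-LRTD mice also carried Alb-DreERT2, which the albumin promoter restricts to hepatocytes and whose recombinase removes the second stop cassette ahead of the diphtheria toxin receptor. Mice of both genotypes had CCl4 for 4 weeks, tamoxifen and diphtheria toxin, so the dosing was shared by the groups. Only p16-Alb-LRTD mice carried Dre for tamoxifen to activate. The paper also reports slight fibrosis outside the central vein region only in genotypes with both Alb-DreERT2 and the receptor allele. It speculates that expression of the toxin receptor leaked. Stellate cells were released with pronase and collagenase and enriched on a Nycodenz gradient. Each genotype had 1 library, the number of mice behind a library and their age were not given in the sources used here, and no difference between the genotypes could be tested. Counting intervals below are 95% intervals that cover counting error only, not the spread between animals.

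Notch receptors are cut after binding a Delta-like or Jagged ligand on a neighbouring cell, and the released intracellular domain enters the nucleus, joins Rbpj and switches on repressors of the Hes and Hey families. In liver, endothelial cells carry Notch1, Notch4 and Dll4, and Jag1 in portal mesenchyme directs bile duct formation. Notch3 is known as the receptor of pericytes and vascular smooth muscle, and stellate cells are the pericytes of the hepatic sinusoid.

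The p16-LRTD library held 11149 barcodes with 193746596 unique molecular identifiers (UMIs), and the p16-Alb-LRTD library held 8806 barcodes with 162219167. After the limits of the study, 9004 and 7416 barcodes were kept, with medians of 17177 and 18273 UMIs; 95 barcode sequences occurred in both libraries, 18 of them among those kept. A kept barcode was called a stellate cell at 15 or more UMIs of Lrat, Ecm1, Hgf and Reln per 10000, an endothelial cell at 8 or more of Kdr, Stab2 and Ptprb, and a Kupffer cell at 8 or more of Clec4f, Cd5l, Vsig4 and Csf1r. Barcodes that met more than 1 threshold, 245 and 221, were left out, and only 23 and 15 stellate cells lay within 20% above the threshold. This gave 7852 and 6621 stellate cells, 430 and 283 endothelial cells, and 283 and 178 Kupffer cells, in that order of libraries. Markers that the thresholds did not use matched the names: Dcn reached 18430 and 22186 UMIs per 1000000 (CPM) in stellate cells, Pecam1 619 and 660 CPM in endothelial cells and Adgre1 1060 and 1189 CPM in Kupffer cells. The hepatocytes targeted by the design were not the cells prepared, so their loss could not be checked here; tdTomato, which lies behind a stop cassette for Cre and another for Dre, gave 589 and 1122 UMIs over all barcodes. The RNA of the libraries differed in a further respect that bears on several results: all 10 genes of a dissociation stress list (Fos, Jun, Hspa1a and others) were higher in p16-Alb-LRTD in every class, with a summed level of 5705 against 8878 CPM in stellate cells, 2335 against 4316 CPM in endothelial cells and 2695 against 3652 CPM in Kupffer cells.

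Notch3 is transcribed from chromosome 17 (32120820 to 32166852, minus strand, GRCm38), Heyl from chromosome 4 (123233556 to 123249875, plus strand), Jag1 from chromosome 2 (137081456 to 137116644, minus strand), Dll4 from chromosome 2 (119325784 to 119335962, plus strand) and Hes1 from chromosome 16 (30064384 to 30067796, plus strand). RefSeq promoters (GRCm38.p6) were matched for 6 of the 9 genes: the 4 receptors, Jag1 and Dll4. The 250 bases before the RefSeq start are shown for the receptor and the ligands that were lower in p16-Alb-LRTD in at least 1 class, because these are the windows in which letters shared by genes that move together would stand. The Notch3 window is chr17:32166891-32167140 on the minus strand, that of Jag1 chr2:137116521-137116770 on the minus strand and that of Dll4 chr2:119325534-119325783 on the plus strand, each written 5′ to 3′ along the gene. The gene coordinates above are those of GENCODE, whose starts can differ from those of RefSeq: the windows of Jag1, Notch2 and Notch4 lie partly, and that of Notch1 wholly, inside the GENCODE gene.
Notch3: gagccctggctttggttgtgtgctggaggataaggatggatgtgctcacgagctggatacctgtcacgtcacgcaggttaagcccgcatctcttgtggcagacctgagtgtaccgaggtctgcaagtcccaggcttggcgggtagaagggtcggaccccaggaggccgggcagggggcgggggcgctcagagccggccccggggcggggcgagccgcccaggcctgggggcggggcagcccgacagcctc
Jag1: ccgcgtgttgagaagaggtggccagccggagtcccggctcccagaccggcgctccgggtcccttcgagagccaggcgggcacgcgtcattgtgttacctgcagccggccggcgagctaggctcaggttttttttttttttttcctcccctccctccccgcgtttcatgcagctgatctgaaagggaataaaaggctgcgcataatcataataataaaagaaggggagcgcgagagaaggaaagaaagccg
Dll4: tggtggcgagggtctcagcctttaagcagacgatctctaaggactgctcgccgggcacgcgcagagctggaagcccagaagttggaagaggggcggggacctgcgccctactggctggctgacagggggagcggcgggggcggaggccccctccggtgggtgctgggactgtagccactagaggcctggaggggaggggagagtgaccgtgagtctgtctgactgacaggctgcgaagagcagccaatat
The letters TGGGAA, the core of the motif bound by Rbpj, and their complement TTCCCA were searched on both strands, and no window of the 6 held them. Of 32851 promoter windows of this length, 7094 (21.6%) did. No match says only that these letters are not in these windows.

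In stellate cells, the p16-Alb-LRTD library had 3.07-fold less Notch3, 2.96-fold less Heyl and 1.59-fold less Jag1 than the p16-LRTD library, and 1.68-fold more Hes1. A gene counted as lower or higher when the libraries differed by at least 1.5-fold and its mean level was at least 5 CPM. Of the 6 members at that level, 3 were lower and 1 was higher, where 3.05% of the 10179 genes at that level were lower and 3.03% higher. At 2-fold, 2 members were lower (0.943% of all genes) and 0 higher (0.923%). The choice of the genes knew some of these ratios, so nothing is read from the counts. The median log2 ratio, p16-Alb-LRTD over p16-LRTD throughout, was -0.41 for the 6 members and -0.05 for all genes.

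Among the receptors, Notch3 stood apart. Stellate cells of the p16-LRTD library held it at 40.4 CPM (39.3 to 41.4) and those of the p16-Alb-LRTD library at 13.1 CPM (12.5 to 13.8). The log2 ratio was -1.62 (-1.70 to -1.54), and 34 of the 10179 genes had a lower ratio. Notch1, the receptor with roles in most tissues, was at 136.8 CPM and 122.5 CPM, a log2 ratio of -0.16 (-0.19 to -0.13). Notch2, the receptor whose loss disturbs bile duct development, was at 53.8 CPM and 49.0 CPM, a log2 ratio of -0.13 (-0.18 to -0.09). Both differences were outside the counting interval and far short of 1.5-fold. Notch4, the receptor known from endothelium, had 2.83 CPM and 2.39 CPM in stellate cells and was under the level for a call. Gm17276 lies on the strand opposite Notch3 and was counted separately, with 956 and 571 UMIs in stellate cells beside 5759 and 1643 of Notch3.

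Of the ligands, Jag1 had 72.9 CPM (71.5 to 74.3) in p16-LRTD stellate cells and 45.9 CPM (44.7 to 47.1) in p16-Alb-LRTD stellate cells. The log2 ratio was -0.67 (-0.72 to -0.62), and 237 genes had a lower ratio. Dll4, the Delta-like ligand of vessel sprouting, had 6.65 CPM (948 UMIs) and 2.63 CPM (329 UMIs). Its log2 ratio of -1.34 (-1.52 to -1.16) was a smaller difference than that of Notch3, -1.62 (-1.70 to -1.54). The mean of 4.64 CPM kept Dll4 out of the calls. Of a list of 6 endothelial markers, 5 were also lower in p16-Alb-LRTD stellate cells, with sums of 76.6 and 53.3 CPM there against 7020 and 6194 CPM in endothelial cells; the part of endothelial RNA in the stellate Dll4 counts was not tested.

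The target genes went in opposite directions. Heyl, a Hey family repressor found in vascular smooth muscle, had 117.9 CPM (116.2 to 119.7) in p16-LRTD stellate cells and 39.8 CPM (38.7 to 40.9) in p16-Alb-LRTD stellate cells, a log2 ratio of -1.57 (-1.61 to -1.52) with 40 genes lower. Hey1 went the same way at a low level, 5.49 CPM (783 UMIs) against 2.52 CPM (315 UMIs), a log2 ratio of -1.12 (-1.32 to -0.93) without a call. Hes1, a repressor that many signals besides Notch switch on, had 195.4 CPM (193.2 to 197.8) and 329.0 CPM (325.9 to 332.2), a log2 ratio of 0.75 (0.73 to 0.77), and 9989 genes had a lower ratio. Total UMIs set the scale here; scaling by TMM moved every stellate log2 ratio up by 0.04 and turned no direction among the members called.

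**Figure D1:**
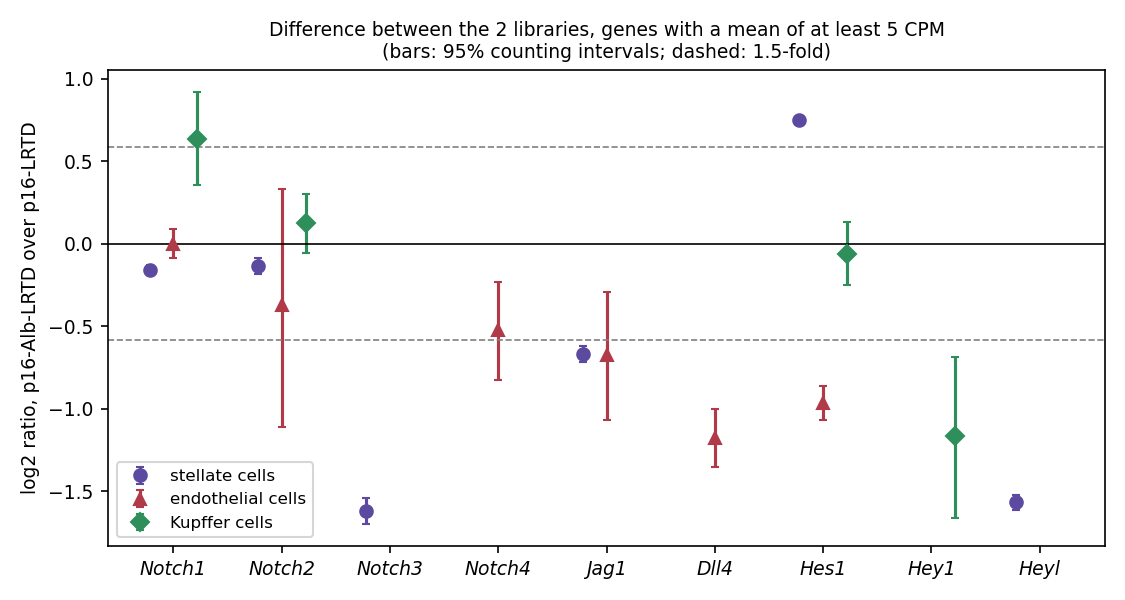
The log2 ratio of p16-Alb-LRTD over p16-LRTD (vertical axis) is plotted for each gene with a mean of at least 5 CPM (horizontal axis), with 1 symbol for each cell class; bars are 95% counting intervals and dashed lines mark 1.5-fold. Notch3 and Heyl in stellate cells lie lowest, at -1.62 and -1.57, and Hes1 lies above the upper line in stellate cells (0.75) and under the lower line in endothelial cells (-0.97).

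Summed levels can hide how many cells carry a transcript, so every cell was thinned to 5000 UMIs, which left out 16 and 7 shallower stellate cells. A Heyl UMI was found in 38.7% (37.6 to 39.7) of 7836 p16-LRTD stellate cells and in 15.7% (14.9 to 16.6) of 6614 p16-Alb-LRTD stellate cells; before thinning the shares were 67.1% and 36.7%. Notch3 was found in 12.9% (12.2 to 13.7) and 5.10% (4.58 to 5.65), and before thinning in 23.1% and 11.7%. The share in endothelial cells, where few cells should make either gene, served as the background of free RNA: Notch3 in 0.239% and 0.353% of them and Heyl in 0.239% and 0.707%, at median depths of 11781 and 11992 UMIs against 17024.5 and 18136 in stellate cells. In Kupffer cells, Notch3 was found in 1.44% and 0% and Heyl in 1.80% and 0%. The stellate shares were well above the values of both classes in both libraries. Jag1 was found in 29.9% and 19.2% of thinned stellate cells, Notch1 in 48.9% and 44.2%, and Notch2 in 22.9% and 21.0%. Hes1 was found in 53.6% (52.5 to 54.7) and 66.9% (65.7 to 68.0), and the share of stellate cells with 5 or more Hes1 UMIs was 2.55% and 8.91%. High counts of Notch3 went the other way, with 0.906% and 0.0756% of stellate cells at 5 or more UMIs.

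Endothelial cells showed another set of differences. Dll4 was 2.26-fold, Hes1 1.95-fold and Jag1 1.60-fold lower in p16-Alb-LRTD, while Notch1 differed by less than its counting error. Of the 6 members at 5 CPM or more, 3 were lower and 0 higher, where 13.5% of 9858 genes were lower and 6.44% higher; at 2-fold 1 was lower (3.65%) and 0 higher (2%). Endothelial cells were few, and more genes passed 1.5-fold in them than in stellate cells. The members' median log2 ratio was -0.60 and that of all genes -0.10.

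The endothelial receptor level was close to constant for Notch1, with 410.4 CPM (394.6 to 426.8) and 410.5 CPM (390.8 to 430.9), a log2 ratio of 0.00 (-0.09 to 0.09). Notch4 had 50.2 CPM (44.8 to 56.1) and 34.9 CPM (29.3 to 41.2), a log2 ratio of -0.52 (-0.82 to -0.23), short of 1.5-fold as under 10 of 12 other settings. Notch2 rested on 52 and 26 UMIs, and its log2 ratio of -0.37 had an interval from -1.11 to 0.33. Dll4 had 197.6 CPM (186.6 to 209.0) and 87.4 CPM (78.4 to 97.0), a log2 ratio of -1.18. The share of thinned endothelial cells with a Dll4 UMI was 56.0% (51.1 to 60.8) in p16-LRTD, and in p16-Alb-LRTD it was 85 of 283 cells (24.8% to 35.7%). Jag1 had 31.7 CPM and 19.8 CPM on 195 and 79 UMIs, a log2 ratio of -0.68 (-1.07 to -0.29) that was short of 1.5-fold under 7 of 12 other settings. Hes1 had 527.6 CPM (509.6 to 546.1) and 270.1 CPM (254.2 to 286.8), a log2 ratio of -0.97 (-1.07 to -0.87).

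Endothelial cells with many Hes1 UMIs were fewer in p16-Alb-LRTD. After thinning, 5 or more UMIs were found in 12.0% (9.01 to 15.5) and 4.95% (2.73 to 8.16) of endothelial cells, with highest values of 52 and 15 UMIs in a cell. For the share with any Hes1 UMI the reading differed between the 2 thinnings, each of them 1 random draw. The share was 64.1% (59.3 to 68.7) and 58.0% (52.0 to 63.8) at 5000 UMIs, intervals that overlap. At 3000 UMIs it was 54.2% (49.3 to 59.0) and 42.8% (36.9 to 48.7), intervals that do not. Notch3, Hey1 and Heyl had 7, 17 and 8 UMIs in all p16-LRTD endothelial cells and 1, 2 and 2 in p16-Alb-LRTD, too few for a comparison.

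The make-up of the endothelial cells also differed between the libraries. All 4 genes of a central vein list (Rspo3, Wnt2, Wnt9b and Thbd) were higher in p16-Alb-LRTD, with a sum of 192 against 688 CPM. Rspo3 had 18.4 and 68.5 CPM in endothelial cells but 606 and 729 CPM in stellate cells, whereas Wnt2, Wnt9b and Thbd were lower in stellate cells. A Rspo3 UMI in an endothelial cell was not told apart from stellate RNA. No UMI of the 4 genes was held by 178 of 430 and 35 of 283 endothelial cells. Among those 178 and 35 cells, Hes1 had a log2 ratio of -0.83 (-1.11 to -0.56) and Dll4 of -0.71 (-1.12 to -0.33), while that of Jag1 turned to 0.14 (-0.76 to 0.95) and that of Notch4, at -0.98 (-2.08 to -0.05), was past 1.5-fold. When barcodes that met more than 1 threshold were kept, the Hes1 log2 ratio was -0.53 and no longer past 1.5-fold, and that of Notch4 was -0.68 and past it. All 6 genes of a stellate marker list were lower in p16-Alb-LRTD endothelial cells, with sums of 528 and 430 CPM, and the activation list of collagens, Acta2, Timp1 and Lox summed to 651 and 43.7 CPM in them. The parts of central vein cells, stellate RNA and mixed barcodes in these differences were not tested.

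In Kupffer cells, the resident macrophages of liver, Hey1 was 2.24-fold lower in p16-Alb-LRTD and Notch1 1.55-fold higher. Of the 4 members at 5 CPM or more, these were the 1 lower and the 1 higher, where 6.83% of 9514 genes were lower and 5.21% higher, and at 2-fold Hey1 alone was lower (1.87%) with 0 higher (1.7%). Hey1 had 24.6 CPM (20.7 to 28.9) and 11.0 CPM (8.10 to 14.5) on 146 and 49 UMIs, a log2 ratio of -1.16 (-1.66 to -0.69). The share of Kupffer cells with a Hey1 UMI was 28.6% and 21.9% before thinning. It was 8.99% (5.90 to 13.0) of 278 and 9.60% (5.70 to 14.9) of 177 cells thinned to 5000 UMIs, and 7.77% (4.94 to 11.5) of 283 and 2.25% (0.616 to 5.65) of 178 cells thinned to 3000; the intervals overlapped at both depths, and no order is read from that share. Notch1 had 32.8 CPM (28.4 to 37.7) and 51.0 CPM (44.6 to 58.0), a log2 ratio of 0.64 (0.35 to 0.92), which was 0.10 when barcodes that met more than 1 threshold were kept and short of 1.5-fold under 7 of 13 other settings. Notch2, the receptor most abundant in Kupffer cells among the 3 classes, had 98.2 CPM and 106.9 CPM, and Hes1 had 91.5 CPM and 87.6 CPM; both intervals of the log2 ratio (-0.06 to 0.30 for Notch2, -0.25 to 0.13 for Hes1) included 0. Notch3 and Dll4 had 4 and 5 UMIs in p16-LRTD Kupffer cells and 0 in p16-Alb-LRTD, where the limit of 3 UMIs that a count of 0 allows is 0.671 CPM and the exact Poisson interval ends at 0.825 CPM.

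Markers of other cells also differed between the Kupffer cells of the libraries. Gpnmb, Spp1, Ccr2 and Ly6c2, genes of macrophages that enter the liver, were all lower in p16-Alb-LRTD, with a sum of 1039 against 257 CPM, of which Gpnmb made 717 and 109 CPM; Ly6c2 had 2 and 0 UMIs. Without the cells above 5 UMIs of these 4 genes per 10000, which left 221 of 283 and 164 of 178 cells, the log2 ratio of Hey1 was -1.07 (-1.62 to -0.53). That of Notch1 was 0.52 (0.21 to 0.83) and no longer past 1.5-fold, and the interval of Hes1 no longer included 0 (-0.23, -0.44 to -0.03). The endothelial marker list summed to 474 and 676 CPM in Kupffer cells, with 3 of its 6 genes lower and 3 higher, among them Cdh5 (361 and 530 CPM) and Pecam1 (62.7 and 125 CPM). The part of endothelial RNA in the Kupffer differences was not tested.

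**Figure D2:**
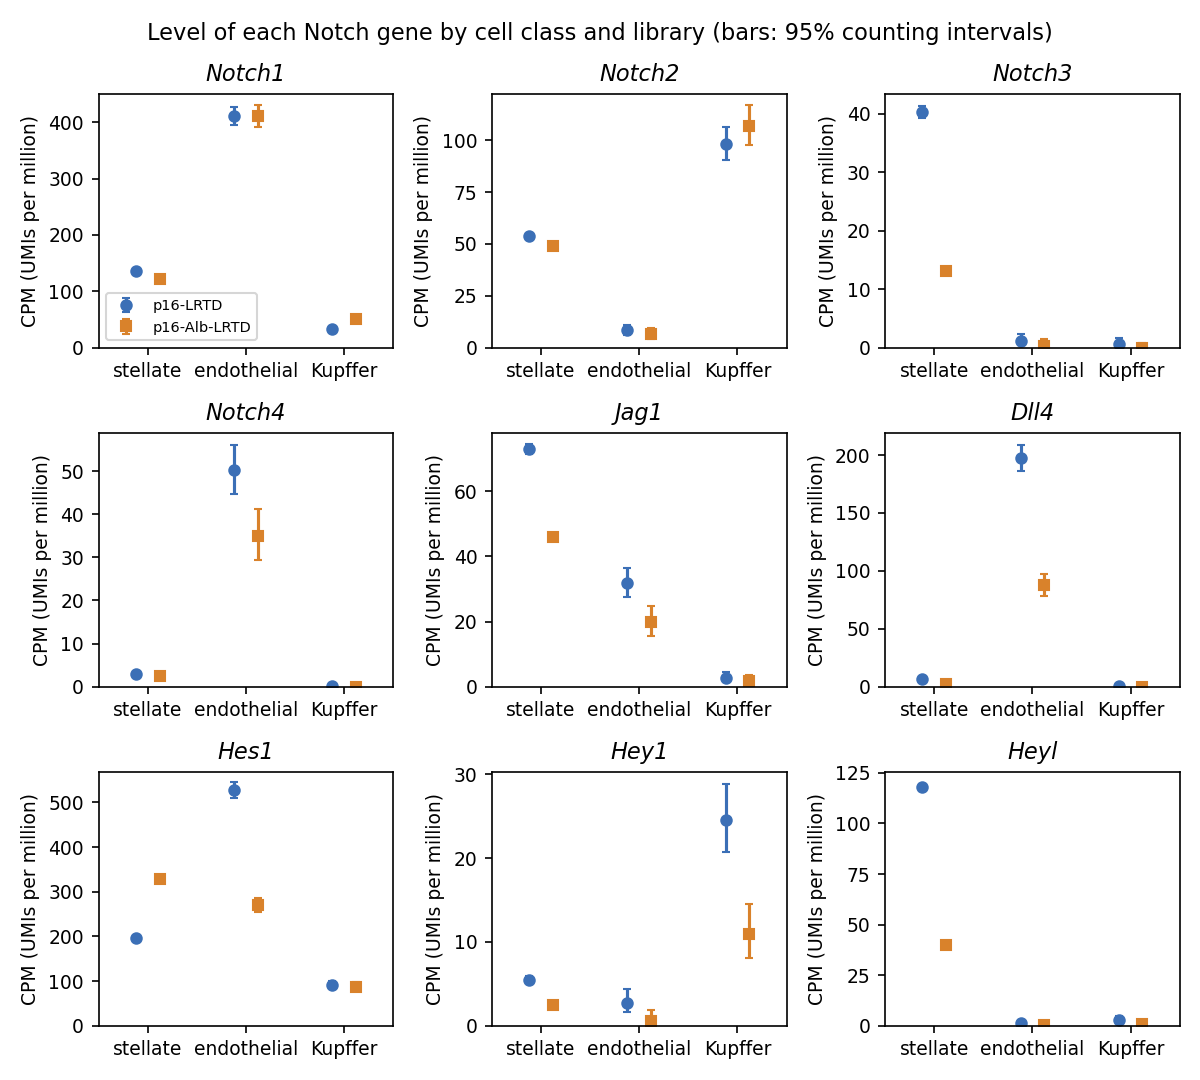
Each panel shows 1 gene, with its level in CPM on the vertical axis, the 3 cell classes on the horizontal axis and 1 symbol for each library; bars are 95% counting intervals. Notch3 and Heyl were highest in stellate cells, Dll4 and Notch4 in endothelial cells, and Hes1 had opposite orders of the libraries in stellate and endothelial cells.

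The order of the classes was the same in both libraries for every member but Hes1. Notch1, Notch4 and Dll4 were highest in endothelial cells, with Notch1 3.00-fold and 3.35-fold and Dll4 29.7-fold and 33.2-fold above stellate cells. Notch2 and Hey1 were highest in Kupffer cells, with Hey1 4.47-fold and 4.35-fold above stellate cells. Jag1 was highest in stellate cells, 2.30-fold and 2.31-fold above endothelial cells. Notch3 and Heyl were highest in stellate cells by far: Notch3 was 35.5-fold above endothelial cells in p16-LRTD, and Heyl 39.0-fold above Kupffer cells. Endothelial and Kupffer cells could not be ordered for Notch3 or Heyl, since the intervals of the ratio between them included 0 on the log2 scale in both libraries. Hes1 was 2.70-fold higher in endothelial than in stellate cells of p16-LRTD, and 1.22-fold higher in stellate than in endothelial cells of p16-Alb-LRTD. In each library these classes came from the same preparation.

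The other genes of the pathway differed little in stellate cells. A list of 53 further components had 38 genes at 5 CPM or more, of which 1 was lower and 1 higher (3.05% and 3.03% of all genes), and their median was 0.04 on the log2 scale. Both called genes belong to the neuralized family, ubiquitin ligases that act on Notch ligands: Neurl1b had 19.5 CPM and 12.3 CPM, and Neurl3 had 27.9 CPM and 42.0 CPM, a log2 ratio of 0.59 (0.53 to 0.65). Of the 10 components of receptor cleavage (Furin, the Adam proteases and gamma-secretase) and the 11 of the nuclear complex (Rbpj, its coactivators and corepressors), all were measured at that level and none passed 1.5-fold. The ligands Dll1, Dll3, Jag2, Dlk1 and Dner were all under the level for a call in stellate cells.

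In endothelial cells, 38 of the 53 were again at that level, with 3 lower and 3 higher (13.5% and 6.44% of all genes), and their median was 0.06 on the log2 scale. Nrarp, a Notch target that feeds back on the pathway, had 105.3 CPM and 41.7 CPM, a log2 ratio of -1.34 (-1.59 to -1.09). The other lower genes were Neurl3, with 134.2 CPM and 84.9 CPM, and Mfng, a glycosyltransferase that modifies Notch receptors, with 33.0 CPM and 21.8 CPM. Lfng, of the same family as Mfng, went the other way with 23.6 CPM and 47.4 CPM. The corepressor Tle1 had 86.1 CPM and 246.0 CPM, a log2 ratio of 1.51 (1.36 to 1.67), and the gamma-secretase subunit Aph1b 9.75 CPM and 19.1 CPM. In Kupffer cells, Mfng (7.74 CPM and 5.14 CPM) and Aph1c (70.0 CPM and 40.2 CPM) were lower and Rfng (6.73 CPM and 10.5 CPM) was higher, 2 and 1 of 38 genes where 6.83% and 5.21% of all genes were, with a median of -0.02; the interval of the Mfng ratio included 0.

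The stellate cells were then divided into sub-clusters by an integration of the libraries from which the members, the pathway list and all marker lists had been left out. Of 9 sub-clusters, 5 held at least 100 cells of each library, and they are given by number and leading genes. Notch3 was concentrated in sub-cluster 1, whose leading genes were Clstn2, Notch3, Nmnat2, Vtn and Mest. That sub-cluster had 2505 cells (31.9%) in p16-LRTD and 1424 cells (21.5%) in p16-Alb-LRTD and held 85.9% and 72.3% of all stellate Notch3 UMIs.

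Within sub-cluster 1, the p16-LRTD level of Notch3 was 134.1 CPM (130.4 to 137.9) and the p16-Alb-LRTD level 44.4 CPM (41.9 to 47.0). Its log2 ratio there, -1.60 (-1.69 to -1.50), was close to that over all stellate cells. In sub-cluster 0 (led by Galnt14 and Hhip) Notch3 had 5.66 CPM and 2.89 CPM, and in sub-cluster 2 (Grid1, Inmt and Sdk2) 5.81 CPM and 3.14 CPM, log2 ratios of -0.97 and -0.89. In sub-cluster 3 (Fbn2, Wt1 and Svep1) it had 11.7 CPM and 9.36 CPM, and in sub-cluster 4 (Spon2, Tmem119 and Col1a1) 7.01 CPM and 5.57 CPM, where the interval of the log2 ratio ran from -0.97 to 0.28. With the same sub-cluster shares given to both libraries, the stellate log2 ratio of Notch3 was -1.38 and that of Heyl -1.41. Myh11, the smooth muscle myosin, had 390 and 201 CPM in sub-cluster 1, where a list of smooth muscle genes summed to 1354 and 996 CPM. That list summed to 1270 and 956 CPM in sub-cluster 3 and 1199 and 888 CPM in sub-cluster 4, and to less in sub-clusters 0 and 2. Clec4g, a sinusoidal endothelial lectin, had 81.8 and 50.4 CPM in sub-cluster 1 while Pecam1 had 1.41 and 1.34 CPM. The part of endothelial RNA in sub-cluster 1 was not tested.

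Heyl was lower in p16-Alb-LRTD in all 5 sub-clusters. Its level was 241.2 CPM (236.2 to 246.3) and 88.7 CPM (85.2 to 92.3) in sub-cluster 1, which held 52.9% and 47.7% of stellate Heyl UMIs, a log2 ratio of -1.44. In sub-cluster 2 it was 64.7 CPM and 16.3 CPM, a log2 ratio of -1.99 (-2.12 to -1.85), and in sub-cluster 0 it was 94.3 CPM and 31.5 CPM, a log2 ratio of -1.58. The smallest difference was in sub-cluster 3, with 45.1 CPM and 24.5 CPM and a log2 ratio of -0.88 (-1.06 to -0.71), and sub-cluster 4 had 96.6 CPM and 42.5 CPM. Heyl was thus also lower in sub-clusters in which Notch3 was low in both libraries.

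Jag1 was likewise highest in sub-cluster 1, at 140.2 CPM and 78.9 CPM (log2 ratio -0.83), and its log2 ratio ran from -0.59 to -0.23 in the other sub-clusters. Dll4 was also highest there, with 14.4 CPM and 5.45 CPM. Hes1 had no such peak: its level was 160.8 to 218.2 CPM over the 5 sub-clusters of p16-LRTD and 310.1 to 405.8 CPM over those of p16-Alb-LRTD, with no overlap, and log2 ratios of 0.66 to 0.95. Hey1 in sub-cluster 3 had 5.70 CPM and 5.40 CPM, a log2 ratio of -0.08 (-0.50 to 0.34).

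**Figure D3:**
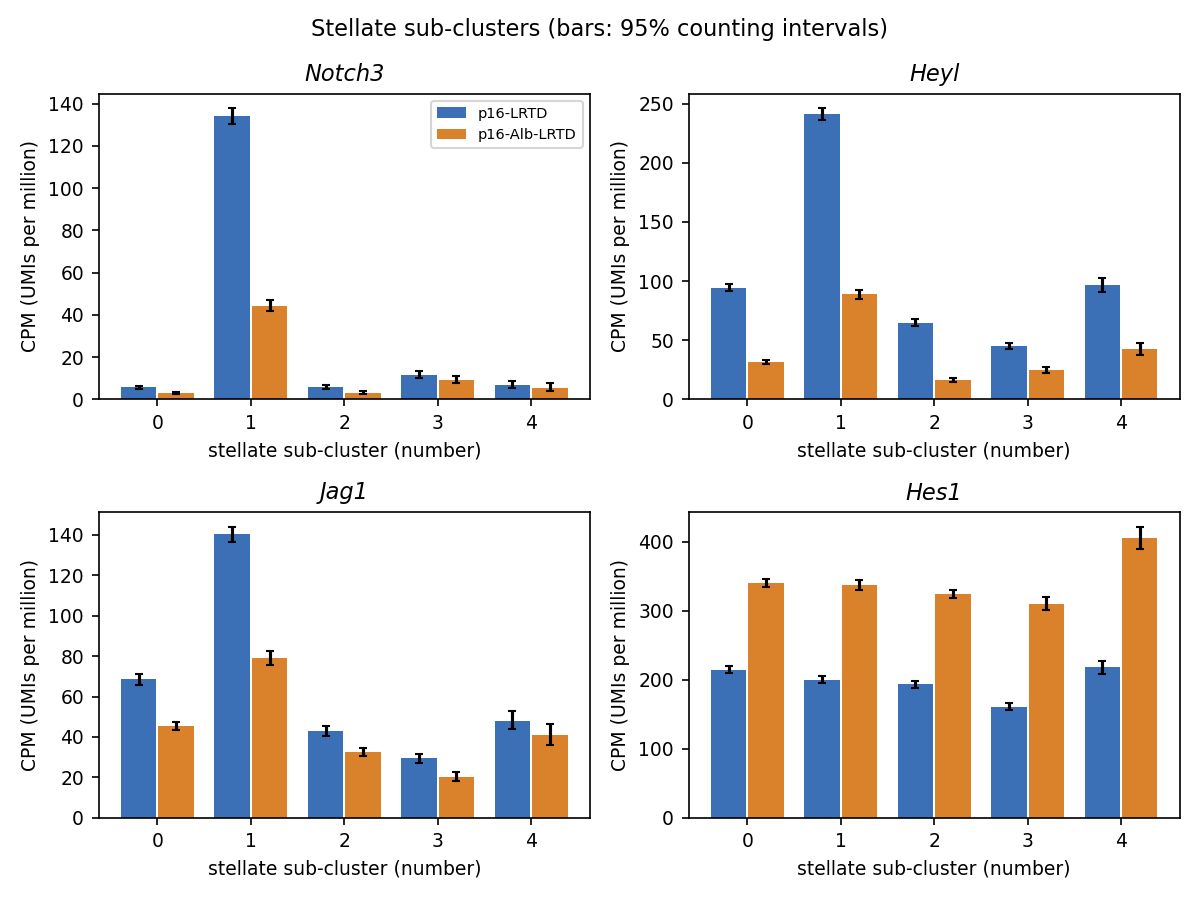
Levels in CPM (vertical axis) of Notch3, Heyl, Jag1 and Hes1 are drawn as bars for each library in the 5 stellate sub-clusters (horizontal axis, by number); error bars are 95% counting intervals. Notch3 reaches 134.1 and 44.4 CPM in sub-cluster 1 and stays under 12 CPM elsewhere, while the Hes1 bars of p16-Alb-LRTD are taller in every sub-cluster.

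Cells with Notch3 transcripts more often held a Heyl transcript. Among p16-LRTD stellate cells thinned to 5000 UMIs, a Heyl UMI was found in 34.2% (33.1 to 35.4) of 6824 cells with 0 Notch3 UMIs, 65.7% (61.6 to 69.6) of 559 cells with 1 and 72.0% (67.6 to 76.1) of 453 cells with 2 or more. In p16-Alb-LRTD the shares were 14.5% (13.6 to 15.4) of 6277 cells, 33.2% (27.4 to 39.4) of 253 and 56.0% (44.7 to 66.8) of 84. At 0 and at 1 Notch3 UMI the p16-Alb-LRTD share was under that of p16-LRTD with intervals apart, and at 2 or more it was lower with the upper bound of 66.8% under the lower bound of 67.6%. With cells thinned to 3000 UMIs the intervals at 2 or more overlapped, 57.1% (50.8 to 63.3) of 252 cells and 45.9% (29.5 to 63.1) of 37. Jag1 showed the same order, with 26.7%, 44.0% and 60.9% in p16-LRTD and 18.4%, 30.4% and 47.6% in p16-Alb-LRTD. The shares also differed for 2 receptors: Notch1 was found in 47.4%, 55.6% and 63.1% of p16-LRTD cells and Notch2 in 21.8%, 27.4% and 34.7%, with the intervals at 0 and at 2 or more apart. In p16-Alb-LRTD the intervals of Notch1 (43.9%, 50.6% and 52.4%) overlapped, those of Notch2 (20.6%, 26.5% and 35.7%) were apart between 0 and 2 or more, and at 3000 UMIs Notch2 had 14.1%, 12.7% and 27.0% there, with intervals that overlapped. Hes1 showed no such order: it was found in 53.6%, 55.3% and 50.8% of p16-LRTD cells and in 67.1%, 61.7% and 64.3% of p16-Alb-LRTD cells, with intervals that overlapped throughout each library. The shares pool all sub-clusters, and sub-cluster 1 held most Notch3 UMIs and the highest Heyl and Jag1 levels in both libraries. The part of the sub-clusters in the shares was not tested. Cells of a library are not replicates, so these shares are a description.

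**Figure D4:**
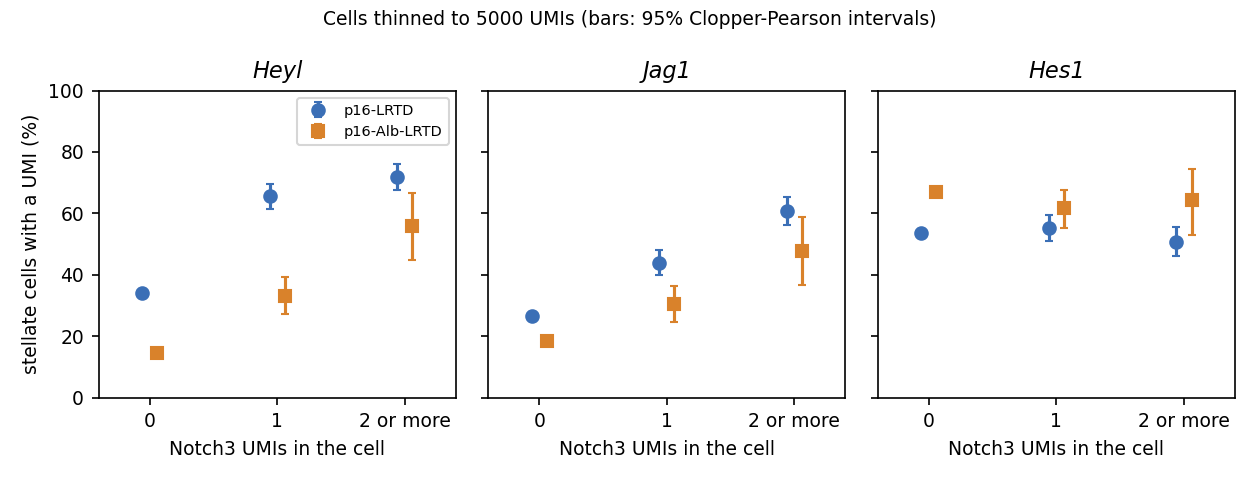
The share of stellate cells with a UMI of Heyl, Jag1 or Hes1 (vertical axis, percent) is plotted against the Notch3 UMIs in the cell (horizontal axis: 0, 1, 2 or more) for each library, after thinning to 5000 UMIs; bars are 95% Clopper-Pearson intervals. Heyl goes from 34.2% to 72.0% in p16-LRTD and from 14.5% to 56.0% in p16-Alb-LRTD, whereas Hes1 stays between 50.8% and 67.1%.

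Across the 10 sums of 5 sub-clusters and 2 libraries, the log2 levels of Notch3 and Heyl had a Pearson correlation of 0.73. Heyl was closer to Dll4 (0.87), Jag1 (0.86) and Notch4 (0.84), although Notch4 lay at only 1.58 to 3.31 CPM. Hes1 had correlations of -0.26 with Notch3 and -0.49 with Heyl. Of 7561 genes compared, those nearest to Notch3 were Slc44a2 (0.96), Tmem178 (0.93), Nptn (0.93), Rbfox1 (0.92) and Mef2c (0.92). Those nearest to Heyl were Pros1 (0.96), 1110059E24Rik (0.96), Adra1b (0.95), Pdia5 (0.94) and Pigk (0.94). The 10 points share 2 libraries, and so the correlations are given as descriptions.

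The Hes1 level moved with the dissociation stress list within each library. When stellate cells of both libraries were divided into 4 equal bins by the summed level of that list, Hes1 ran from 152.2 CPM in the lowest bin to 251.8 CPM in the highest in p16-LRTD, and from 182.8 CPM to 406.0 CPM in p16-Alb-LRTD. The p16-Alb-LRTD level was the higher in every bin, with log2 ratios of 0.26 (0.20 to 0.33), 0.33, 0.49 and 0.69 (0.64 to 0.74). With the same bin shares given to both libraries, the stellate Hes1 log2 ratio was 0.48, no longer past 1.5-fold, and that of Jag1 was -0.56, also short of it. Notch3 and Heyl stayed past 1.5-fold at -1.13 and -1.40. Notch3 was lower at higher stress levels within each library, from 63.7 to 21.6 CPM in p16-LRTD and from 28.6 to 7.22 CPM in p16-Alb-LRTD.

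In endothelial cells, Hes1 was lower in p16-Alb-LRTD although the stress list was higher. Its level in p16-LRTD ran from 205.1 CPM in the lowest bin to 1709 CPM (1603 to 1821) in the highest, which held 38 cells, and in p16-Alb-LRTD from 130.7 CPM to 346.4 CPM (320.9 to 373.3), with 141 cells in the highest bin. The log2 ratios over the 4 bins were -0.65, -0.67, -1.86 and -2.30, and with equal bin shares the ratio was -1.76 in place of -0.97. In Kupffer cells the Hes1 levels of the libraries overlapped within their intervals in all 4 bins. Whether the stress genes take a part in the Hes1 differences was not tested.

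**Figure D5:**
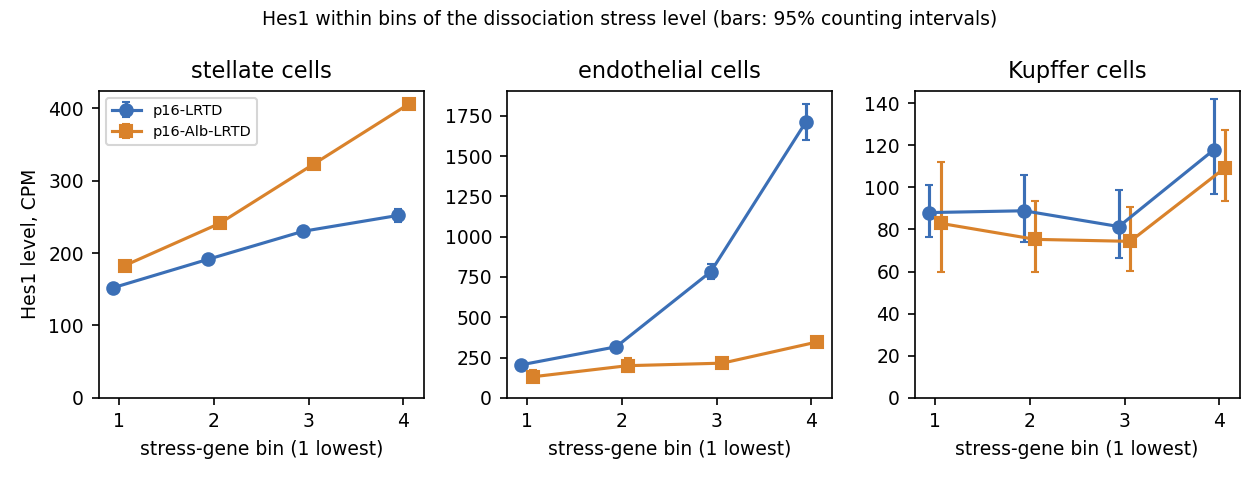
The Hes1 level in CPM (vertical axis) is plotted over 4 bins of the summed dissociation stress level per cell (horizontal axis, 1 lowest) for each library in stellate, endothelial and Kupffer cells; bars are 95% counting intervals. The p16-Alb-LRTD line lies above in stellate cells (182.8 to 406.0 CPM) and below in endothelial cells (130.7 to 346.4 CPM), and the lines meet within their intervals in Kupffer cells.

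The activation state of the stellate cells differed too: a list of Col1a1, Col1a2, Col3a1, Acta2, Timp1 and Lox summed to 8475 CPM in the control library and 2893 CPM in the other, with all 6 lower in p16-Alb-LRTD. Among the 5 sub-clusters with at least 100 cells of each library, sub-cluster 1, with the highest Notch3 and Heyl, had the lowest sums of that list, 1782 and 1511 CPM, and sub-cluster 3 the highest, 23419 and 6936 CPM. The part of the activation state in the Notch differences was not tested. A list of division genes summed to 89.5 and 24.4 CPM over all stellate cells, and without cells holding a Mki67 or Top2a UMI the log2 ratio of Notch3 was -1.67.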

How the data were processed

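For 1 library of each genotype, the authors deposited UMI counts that were not normalised, made with the droplet kit for transcript 3′ ends and with Cell Ranger 7.0.1 on mm10, per the labels and the methods of the study. Everything further was computed here with Python 3.11.15 (numpy 2.4.6, scipy 1.17.1, pandas 2.3.3) and R 4.3.3. Barcodes were kept under the limits stated by the study: 2000 to 7000 genes, up to 50000 UMIs and at most 5% mitochondrial UMIs. No doublet caller was run; the upper limits and the removal of barcodes meeting more than 1 class threshold served instead.

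Counts were summed per class and library and divided by the summed UMIs (CPM). Intervals of levels are exact Poisson intervals, those of ratios exact conditional intervals and those of shares Clopper-Pearson intervals; they cover counting error only. PCR copies are collapsed in UMIs. With 1 library per genotype no test was run and no p-value is given. The ratio code was tested on simulated data. Sub-clusters came from reciprocal PCA and Louvain clustering in Seurat 5.3.0 (2000 variable genes, 30 dimensions, resolution 0.5), and TMM factors from edgeR 4.0.16 served as an alternative scaling of the sums. Cells were thinned without replacement to 5000 UMIs. Gene coordinates are those of GENCODE vM21 (GRCm38). Reads from genes that overlap or resemble each other may be split in the deposited counts.

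The members, the pathway list and the marker lists were chosen with earlier results of these data known. Named are all members, those genes of the pathway list past 1.5-fold at a mean of 5 CPM, the 5 genes most like Notch3 and Heyl, and the marker genes; other pathway genes are named without values, as examples of their groups or as ligands under the level for a call. The alternatives with stress bins, without central vein marker cells and without cells high in infiltrating macrophage genes were chosen after seeing the data. The last was run with a list of these genes and again with 4 of them; both ended the same call, and the values of the longer list are not reported here.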

Additional observations from a re-analysis of the deposited data

Results flagged for a closer look

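Hes1 and Neurl3 had opposite differences between the libraries in stellate and endothelial cells. The log2 ratio of Hes1, p16-Alb-LRTD over p16-LRTD, was 0.75 in stellate cells and -0.97 in endothelial cells. That of Neurl3 was 0.59 in stellate cells and -0.66 in endothelial cells. Neurl3 was no longer past 1.5-fold in stellate cells with overlapping barcodes kept, nor in endothelial cells with TMM scaling. With 1 library of each genotype, neither contrast between the classes was tested.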

How the results depend on the processing

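No paired analysis was possible because there was only 1 library per genotype. Of 322 values recomputed under other settings, 71 moved beyond the counting interval of the reported value or, for a count of genes, by over 1.5 times, and 1 reversed: the endothelial Jag1 log2 ratio became 0.14 without cells holding central vein markers. For the 196 ratios of single members, the numbers were 34 and 1. The stellate log2 ratio of Notch3 ran from -1.90 to -1.13, and that of Hes1 from 0.48 to 0.80.

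The stellate Heyl log2 ratio was -1.52 with median-of-ratios scaling, -1.72 as a mean of per-cell CPM, -1.41 with pooled sub-cluster shares and -1.40 with pooled stress bins. The stellate count of lower members was 5 with a minimum of 1 CPM or none, as Dll4 and Hey1 joined, and that of higher members was 0 at 2-fold or with pooled stress bins. In endothelial cells 6 members were lower with no minimum and 1 at 2-fold, and 1 was higher without central vein marker cells. In Kupffer cells 3 were lower when overlapping barcodes were kept or at a minimum of 1 CPM, and 6 with no minimum; 0 were higher at 2-fold, with overlapping barcodes kept, at 10000 to 30000 UMIs, without Mki67 or Top2a cells, as a mean of per-cell CPM, with pooled stress bins and without cells high in infiltrating macrophage genes.

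Of the pathway list, 0 genes were lower and 0 higher in stellate cells at 2-fold, and 0 higher with overlapping barcodes kept. In endothelial cells 1 was lower with TMM scaling and at 2-fold, and 5 were higher with overlapping barcodes kept. In Kupffer cells 1 was lower with TMM scaling, 0 were lower and 0 higher at 2-fold, and 2 were higher at a minimum of 1 CPM. Thinned to 3000 UMIs, the shares of stellate cells in p16-LRTD and p16-Alb-LRTD were 9.64% and 3.07% for Notch3 and 28.6% and 10.6% for Heyl. The Heyl share was then 25.9%, 51.9% and 57.1% at 0, 1 and 2 or more Notch3 UMIs in p16-LRTD, and 10.1%, 21.1% and 45.9% in p16-Alb-LRTD. Except where stated here or beside the result, the cause of these shifts was not tested. Few UMIs were counted for Notch3, Notch4, Jag1, Dll4 and Heyl in Kupffer cells and for Notch3, Hey1 and Heyl in endothelial cells, which limits their comparison.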
